A study of Mus musculus with 90 samples.

Results

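Dystrophin, utrophin, dystroglycan, alpha-sarcoglycan, beta-sarcoglycan and alpha-dystrobrevin are encoded by Dmd, Utrn, Dag1, Sgca, Sgcb and Dtna, and their products belong to the dystrophin-glycoprotein complex of the muscle membrane. Their transcripts were followed while primary skeletal myoblasts of MyoD-/- mice moved from growth to differentiation medium. Members were all probe sets that the chip annotation gives to 1 of these symbols alone, which found 20 probe sets for the 6 genes, among 15965 genes with a symbol of their own on the 3 chip designs. A probe set was tested where at least 3 of 30 arrays of its chip exceeded the chip median, and 17 of the 20 passed, against 24307 tested probe sets for 12373 named genes in all.

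The dystrophin-glycoprotein complex links the actin cytoskeleton of a muscle fibre to laminin in the surrounding matrix. Dystrophin binds actin on one side and dystroglycan on the other, dystroglycan crosses the membrane and holds laminin, and the sarcoglycans form a subcomplex beside it. Dystrobrevin and the syntrophins bind to dystrophin on the inner face, and utrophin is a relative of dystrophin that stands in its place in immature muscle and at the neuromuscular junction. Loss of dystrophin, of a sarcoglycan or of laminin alpha 2 causes muscular dystrophy in humans and mice.

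Each of 3 cultures, named 1999, P6 and P10, was sampled in growth medium (0h) and at 9 times in differentiation medium, after 6h, 12h, 18h, then 24h, 36h and 48h, and later after 3d, 4d and 7d, and each of the 30 RNA samples was read on the chips MG_U74Av2, MG_U74Bv2 and MG_U74Cv2. All samples, those of 0h included, were MyoD-/-, lacking the myogenic transcription factor MyoD, so nothing below measures an effect of the genotype. Cells grew on collagen-coated plates in Ham's F10 with basic fibroblast growth factor and fetal bovine serum before DMEM with horse serum replaced it, a medium in which myoblasts fuse into multinucleated myotubes. The labels do not say what the culture names stand for or whether the cultures came from separate animals. The p values rest on the scatter between arrays that remains after time and culture are accounted for, and that scatter may be technical.

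Of 10 myotube markers 8 rose by 7d, and the summed signal of the list went from between 5072 and 12087 at 0h to between 132945 and 425143 at 7d, with culture 1999 lowest at 7d. Ckm and Ttn did not rise, with log2 changes of -0.36 and 0.084 by 7d (limma, adjusted p = 0.518 and 0.894). Of the myoblast markers 2 of 5 tested rose by 7d, Cdh15 and Des, and their list's summed signal went from between 8926 and 10773 to between 13993 and 14830. At 0h Myf5 read 1896 to 2466 and Cdh15 336 to 1059. Of the 7 genes on this list Pax7 had no probe set. Chrd, chordin, was on the list but is not a specific marker of myoblasts, and at 131 to 164 it was too dim to test. The Myod1 probe set gave 3008 to 4389 at 0h and 3305 to 4572 at 7d, and since the labels do not say which part of the gene was deleted, it does not check the genotype. Of the fibroblast markers 3 of 6 tested rose by 7d, and that list's summed signal lay between 35102 and 83109 at 0h and between 59485 and 89321 at 7d. Of the smooth muscle markers 1 of 4 tested rose. The 1 endothelial and 2 Schwann cell markers tested did not pass, and 0 adipocyte and 0 macrophage markers passed the filter, with summed signals of at most 398 and 1143 at these times. The part of the fibroblast and smooth muscle markers in the results was not tested. In bulk RNA a change in the share of a cell type and a change in RNA per cell cannot be told apart.

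The sequence just before the annotated transcript start is shown for the 3 genes whose probe sets rose most and for Utrn, whose probe sets moved least. RefSeq gave promoter windows for 5 of the 6 genes (build GRCm38.p6), of which the 250 bases before the start were read, 5′ to 3′ on the gene's strand. Capitals mark each match to the E-box CANNTG, the core bound by MyoD, myogenin and other basic helix-loop-helix factors. Of 32851 such windows over all genes, 66.2% hold at least 1 match.
Sgca, chr11:94976328-94976577, minus strand: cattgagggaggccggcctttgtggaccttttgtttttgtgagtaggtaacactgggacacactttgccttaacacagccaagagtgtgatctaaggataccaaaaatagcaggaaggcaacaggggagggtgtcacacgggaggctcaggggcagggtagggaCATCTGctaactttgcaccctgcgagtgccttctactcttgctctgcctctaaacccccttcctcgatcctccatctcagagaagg
Sgcb, chr5:73647738-73647987, minus strand: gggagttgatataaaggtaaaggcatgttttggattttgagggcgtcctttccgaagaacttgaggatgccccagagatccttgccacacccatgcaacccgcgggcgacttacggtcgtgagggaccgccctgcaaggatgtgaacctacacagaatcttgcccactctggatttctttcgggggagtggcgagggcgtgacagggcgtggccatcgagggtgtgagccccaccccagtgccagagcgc
Dag1, chr9:108263959-108264208, minus strand: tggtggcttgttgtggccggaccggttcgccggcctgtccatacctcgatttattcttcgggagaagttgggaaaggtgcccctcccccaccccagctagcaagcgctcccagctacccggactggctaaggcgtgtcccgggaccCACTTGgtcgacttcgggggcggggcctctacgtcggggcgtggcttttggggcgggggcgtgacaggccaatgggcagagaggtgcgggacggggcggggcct
Utrn, chr10:12861736-12861985, minus strand: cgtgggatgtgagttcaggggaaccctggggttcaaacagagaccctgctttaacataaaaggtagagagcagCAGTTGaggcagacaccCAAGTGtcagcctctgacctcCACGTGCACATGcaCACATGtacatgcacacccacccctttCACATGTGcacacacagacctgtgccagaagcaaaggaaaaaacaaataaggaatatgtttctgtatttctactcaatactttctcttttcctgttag

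The Sgca window held 1 match, the Dag1 window 1 and the Sgcb window 0, whereas the Utrn window held 7, some of them overlapping. The form CAGCTG was in none of these windows and in 13.0% of all windows. The GC box GGGCGG, read on both strands, occurred 3 times in the Dag1 window and once in the Sgcb window, and 32.7% of all windows hold it. Dag1 has a second start, downstream of this one, and its window overlaps the one shown. Of the windows before 2 Dmd starts, 1 held a match to the MEF2 motif and 1 to the CArG box, each in the same window, motifs that 2.92% and 1.47% of all windows hold. These matches are letters in a window and say nothing of binding.

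Over the course, both tested Sgca probe sets, both Dag1 probe sets, Sgcb 93898_at and Sgcb 106176_at were higher by 24h and at every later time. The other Sgcb probe sets passed at fewer times. For dystrobrevin and utrophin, 2 of 4 tested probe sets each passed at some time. No tested probe set of these genes passed the test as lower than at 0h at any time. Each time was compared with 0h in limma with culture as a block, and an adjusted p under 0.05 counted as a rise or fall. Folds were taken after adding to each signal the 25th percentile of its chip (119.8, 270.1 and 213.0), which makes the fold of a dim probe set smaller than the ratio of its signals. Of the 17 tested probe sets, 2 were higher at 6h, 5 at 12h and 7 at 18h. There were 8 at 24h, 8 at 36h and 9 at 48h, and then 7 at 3d, 10 at 4d and 11 at 7d. Genes with at least 1 such probe set numbered 2 at 6h, 4 from 12h to 36h and at 3d, and 5 at 48h, 4d and 7d. Probe sets of 1 gene read the same RNA samples and are not independent. The shares of all probe sets called higher at these 9 times were 0.646%, 1.74%, 4.31%, 4.44%, 4.29%, 5.56%, 5.23%, 5.84% and 7.64% in that order. The median log2 change of the 17 was 0.66 at 6h, 1.15 at 24h and 1.12 at 7d, while that of all tested probe sets was 0.0015, -0.0046 and -0.05. With time alone in the model, which leaves the differences between cultures in the error, 0 were called at 6h, 6 at 24h and 7 at 7d.

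**Figure D1:**
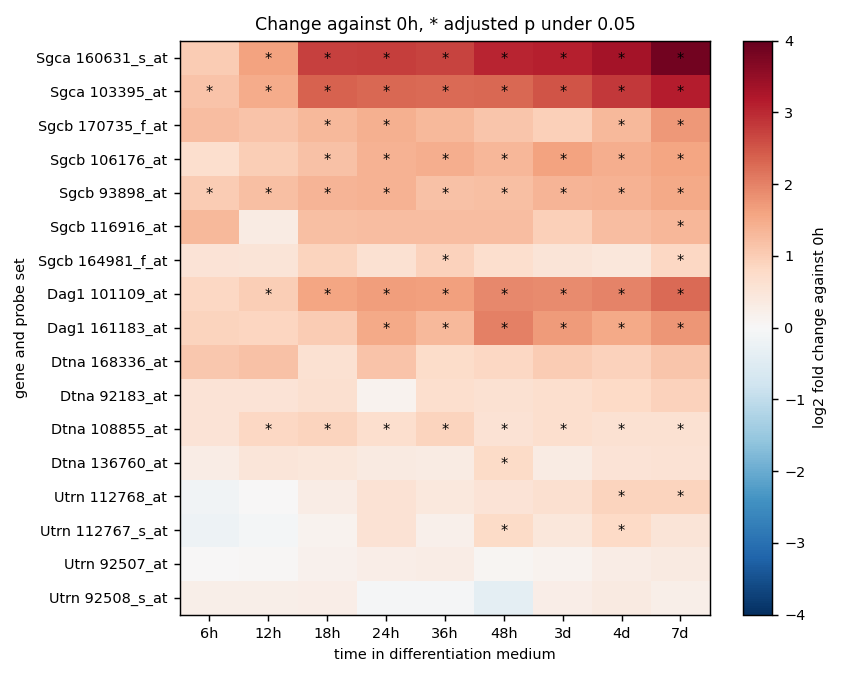
Log2 fold change against 0h (colour, red higher) for the 17 tested probe sets (rows, grouped by gene) at 9 times (columns), with an asterisk where the adjusted p was under 0.05. Both Sgca probe sets are darkest, at 3.13 and 3.87 by 7d. Asterisks are scarce in the Utrn rows and in the Dtna rows other than 108855_at.

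Alpha-sarcoglycan, a transmembrane glycoprotein confined to striated muscle, changed most. In culture 1999 the signal of Sgca probe set 103395_at was 332 at 0h, 705, 1108 and 1652 over the next 3 times (6h to 18h), 1298, 1253 and 1258 at 24h to 48h, and 1037, 1552 and 2259 at the last 3 times (3d to 7d). In P6 it was 205, 790, 765, 2218, 2369, 1968, 1919, 3042, 3564 and 3953 at the same times, and in P10 it was 475, 1092, 1658, 2690, 2892, 3318, 3555, 4453, 4984 and 5913. Every sample from 6h on exceeded every 0h sample, and 0h and 6h were the only neighbouring times whose ranges did not overlap. P6 and P10 went on rising from 48h, and 1999 was the lowest of the 3 at every time from 18h.

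The mean signal of this probe set was 337 ± 135 (SD, n = 3) at 0h, 2186 ± 813 at 24h and 4042 ± 1828 at 7d. The log2 change of Sgca 103395_at was 1.13 ± 0.28 (SE) at 6h (limma, adjusted p = 0.0456), 2.31 ± 0.28 at 24h (adjusted p = 7.52e-06) and 3.13 ± 0.28 at 7d (adjusted p = 9.28e-08), an 8.75-fold rise. The call at 6h held under 4 of 13 alternatives and ended, among others, without the culture block (adjusted p = 0.561), without P6 and without P10.

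The other tested Sgca probe set, 160631_s_at, whose suffix marks a design shared by several transcripts, rose too. Its signal was 125 in 1999, 102 in P6 and 205 in P10 at 0h, 680, 1936 and 3330 at 24h, and 1993, 4119 and 6007 at 7d. Every sample of 24h and 7d exceeded every 0h sample, whereas the groups of 24h and 7d overlapped. The order of the cultures at 24h and 7d was that of the first probe set. The log2 change was 2.78 ± 0.37 at 24h (limma, adjusted p = 2.73e-05) and 3.87 ± 0.37 at 7d (adjusted p = 2.69e-07), 14.6-fold on the scale with the added value, which is close to the 0h signals. Across the 30 samples both Sgca probe sets had a Pearson r of 0.98, over samples that share their RNA and array. The third Sgca probe set, 168948_at, read between 148 and 943 and exceeded its chip median in 1 array of 30, so it was not tested. With no filter on dim probe sets it showed no rise, with a log2 change of -0.11 ± 0.34 at 7d (limma, adjusted p = 0.926).

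Beta-sarcoglycan, which is expressed in many tissues and is needed for the subcomplex to assemble, was on the array as 5 probe sets. For Sgcb 93898_at, culture 1999 read 322, 891, 950, 1333, 977, 972, 697, 1210, 1022 and 1161 from 0h to 7d. P6 read 614, 1089, 1183, 1548, 1493, 938, 1349, 1201, 1451 and 1632, and P10 read 525, 1256, 1683, 1373, 1943, 1979, 1961, 1849, 2031 and 2108. All 27 later samples lay above the 3 samples of 0h, and from 6h on the ranges of neighbouring times overlapped.

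The log2 change of Sgcb 93898_at was already 1.00 ± 0.20 at 6h (limma, adjusted p = 0.0114), against 1.38 ± 0.20 at 24h (adjusted p = 5.8e-05) and 1.53 ± 0.20 at 7d (adjusted p = 9.59e-06, 2.88-fold). The 6h call ended without the culture block (adjusted p = 0.33) and without any 1 of the 3 cultures. Sgcb 106176_at read 202, 642 and 585 in 1999, P6 and P10 at 0h and 1603, 2174 and 1875 at 7d. Its groups did not overlap, with a log2 change of 1.58 ± 0.29 (adjusted p = 0.000422, and 0.0554 with scan day as a further block).

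The other Sgcb probe sets, 116916_at, 164981_f_at and 170735_f_at, rose at 7d by 1.32 ± 0.42, 0.84 ± 0.28 and 1.72 ± 0.41 on the log2 scale (limma, adjusted p = 0.0336, 0.0483 and 0.00462). Their 0h signals in culture 1999 were 82, 127 and 47, against 287 to 863 in P6 and P10. Without the 1999 arrays of 0h none of these 3 calls held, and the count of all 17 at 7d was 7 in place of 11. All 5 Sgcb probe sets were thus higher at 7d, 2 of them, 93898_at and 106176_at, without resting on those arrays.

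Dystroglycan, which a single transcript encodes as a precursor cut into the laminin-binding alpha and the membrane-spanning beta chain, gave 2 probe sets. Dag1 101109_at read 6460, 9164, 11957, 13337, 13350, 13558, 18670, 15564, 17804 and 22552 in 1999 from 0h to 7d. It read 4380, 6598, 5677, 13152, 16010, 12992, 18384, 19363, 19889 and 25876 in P6, and 4588, 12675, 15341, 20362, 20412, 23042, 22286, 23260, 23816 and 26959 in P10. From 18h the lowest sample read 12992 and the highest 0h sample 6460, whereas P6 at 12h still lay within the range of 0h.

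The mean signal of Dag1 101109_at was 5142 ± 1146 (SD, n = 3) at 0h, 16591 ± 3567 at 24h and 25129 ± 2297 at 7d. Its log2 change was 0.84 ± 0.23 at 6h (limma, adjusted p = 0.088), 1.67 ± 0.23 at 24h (adjusted p = 4.41e-05) and 2.28 ± 0.23 at 7d (adjusted p = 5.21e-07, 4.86-fold). Dag1 161183_at read 1548, 1189 and 1428 at 0h and 5449, 4897 and 4496 at 7d, a log2 change of 1.75 ± 0.32 (adjusted p = 0.000513). Its groups at 0h and 7d did not overlap, but its samples of 4d spread from 2195 in 1999 to 8099 in P10.

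**Figure D2:**
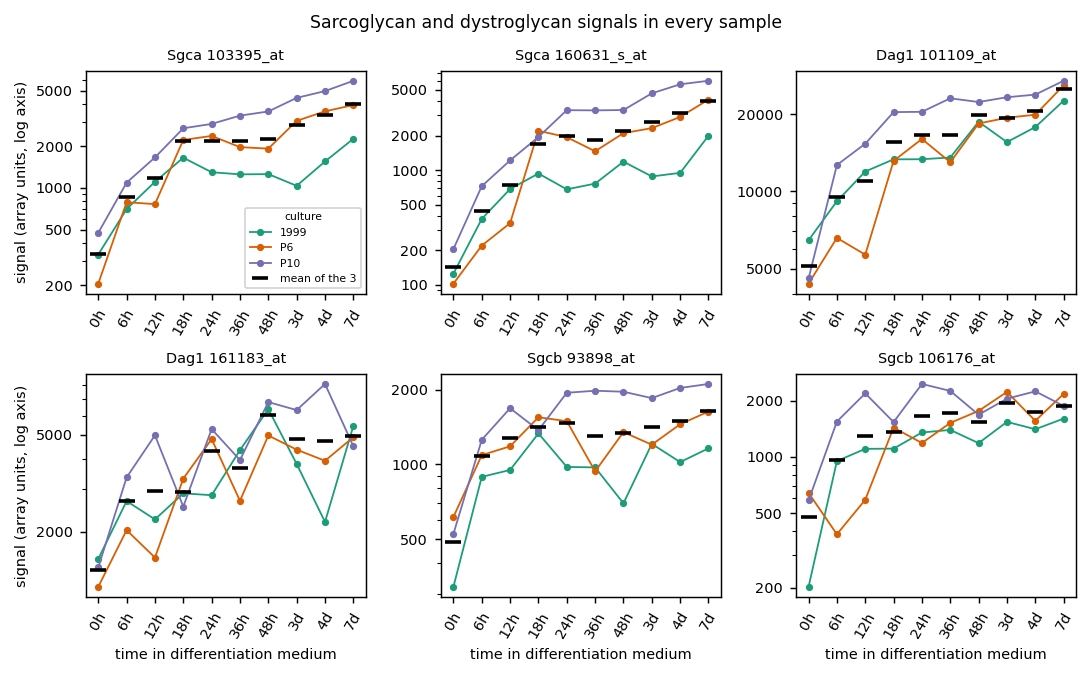
Signal (log axis, array units) of 6 probe sets of Sgca, Dag1 and Sgcb in each sample against time in differentiation medium, with coloured points for the 3 cultures and a black bar for their mean. Every panel climbs within the first day, and culture 1999 (green) lies lowest in both Sgca panels from 24h on.

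Between 24h and 7d no member probe set passed the test (0 of 17, against 0.0370% of all probe sets called higher; 4 of 17 at an unadjusted p under 0.05). The log2 difference from 24h to 7d was 0.82 ± 0.28 for Sgca 103395_at (limma, adjusted p = 0.259), 1.09 ± 0.37 for Sgca 160631_s_at (adjusted p = 0.269) and 0.61 ± 0.23 for Dag1 101109_at (adjusted p = 0.337). For Sgcb 93898_at it was 0.15 ± 0.20 (adjusted p = 0.88). In the joint test over the 10 times, which asks for a difference at any time, 8 of the 17 passed against 8.31% of all probe sets. These were both tested Sgca and Dag1 probe sets, Sgcb 93898_at and 106176_at, Dtna 108855_at and Utrn 112767_s_at.

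The arrays were scanned on 4 to 6 days per chip according to the instrument records, and in no culture did 0h and 7d, whose arrays all have a recorded day, share one. The 6 arrays of P10 from 18h to 4d on MG_U74Cv2 have no day recorded and entered the block as a level of their own. On MG_U74Av2 the 24h and 48h arrays did share a day with 0h in 1999 and P6. Within those days the log2 difference of Sgca 103395_at at 24h was 1.65 in 1999 and 2.94 in P6, that of Dag1 101109_at 1.03 and 1.84, and that of Sgcb 93898_at 1.31 and 1.14. With scan day and culture both as blocks, 6 of the 17 were called at 7d, and both tested Sgca probe sets, both Dag1 probe sets and Sgcb 93898_at were among them.

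Alpha-dystrobrevin, a cytoplasmic relative of dystrophin that binds it and the syntrophins, showed an early and smaller rise in 1 of its 4 tested probe sets. Dtna 108855_at read 979, 1600, 2059, 2233, 1806, 2426, 1185, 1622, 1588 and 1761 in 1999 from 0h to 7d. P6 read 916, 1265, 1392, 1642, 1496, 1507, 1821, 1388, 1328 and 1183, and P10 read 929, 1710, 2216, 2106, 1695, 2083, 1695, 2069, 1790 and 1921. All later samples exceeded the 3 of 0h, and in 1999 and P10 the highest values fell between 12h and 36h. The log2 change was 0.67 ± 0.18 at 24h (limma, adjusted p = 0.0184) and 0.62 ± 0.18 at 7d (adjusted p = 0.0189, 1.54-fold). Both calls ended without the culture block (adjusted p = 0.0845 and 0.0777) and without the 1999 arrays of 0h.

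The remaining tested Dtna probe sets did not pass at 7d. Dtna 92183_at, 136760_at and 168336_at had log2 changes of 0.91 ± 0.32, 0.59 ± 0.25 and 1.12 ± 0.52 (limma, adjusted p = 0.0602, 0.125 and 0.168), each positive in all 3 cultures. Dtna 136760_at passed at 48h alone, with a log2 change of 0.77 ± 0.25 (adjusted p = 0.0445). That call held under 5 of 13 alternatives and ended without the culture block (adjusted p = 0.0593), with any 1 culture left out and with only the 6 arrays compared. Dtna 168336_at read 90 in 1999 at 0h, against 726 in P6 and 640 in P10. Dtna 92184_at, between 14 and 428, never exceeded its chip median and was not tested.

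Utrophin signal lay over the chip median in all 30 arrays for both probe sets of MG_U74Bv2 and changed less than that of Sgca or Dag1. Utrn 112768_at read 1991, 1504, 2746, 3330, 3149, 2294, 1819, 2920, 4437 and 5427 in 1999 from 0h to 7d. P6 read 2029, 2128, 2048, 2667, 2813, 3502, 4463, 2963, 4480 and 4587, and P10 read 3021, 2664, 2311, 2823, 5044, 3883, 4977, 5956, 4533 and 3659. The 3 cultures crossed repeatedly and the ranges of 0h and 24h overlapped, but those of 0h and 4d and of 0h and 7d did not. The log2 change was -0.15 ± 0.28 at 6h (limma, adjusted p = 0.922), 0.57 ± 0.28 at 24h (adjusted p = 0.266), 0.88 ± 0.28 at 4d (adjusted p = 0.0435) and 0.89 ± 0.28 at 7d (adjusted p = 0.0334, 1.85-fold). The call at 4d held under 3 of 13 alternatives and that at 7d under 7 of 13. Both ended without the culture block (adjusted p = 0.108 and 0.0807), with scan day as a further block and with only the 6 arrays compared. Both also ended without 1999, without P6 and without the 1999 arrays of 0h.

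Utrn 112767_s_at read 4401 to 6596 at 0h and 9324 to 9847 at 4d, a log2 change of 0.79 ± 0.23 (limma, adjusted p = 0.025). That call held under 7 of 13 alternatives, among them the model without the culture block (adjusted p = 0.0437), and ended with scan day as a further block (adjusted p = 0.0526), with any 1 culture left out and without the 1999 arrays of 0h. At 7d it read 10004 in 1999, 8729 in P6 and 5753 in P10, and P10 was then below its own 0h value of 6596. The log2 change at 7d was 0.53 ± 0.23 (adjusted p = 0.132). Utrn 92507_at and 92508_s_at, on MG_U74Av2, changed by 0.37 ± 0.26 and 0.24 ± 0.27 at 7d (adjusted p = 0.414 and 0.664), and their 0h and 7d ranges overlapped. In 1999 at 48h they read 372 and 262, the lowest of their 30 samples.

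Dystrophin could not be followed. The single Dmd probe set, 93623_at, read 145, 98, 131, 25, 55, 26, 22, 19, 114 and 66 in 1999 from 0h to 7d. It read 8, 47, 25, 1, 10, 91, 4, 24, 139 and 104 in P6, and 5, 16, 16, 101, 5, 4, 89, 12, 121 and 116 in P10. It lay under the 25th percentile of its chip in 26 of 30 arrays and over the chip median in 0, so it was not tested. The 4d samples, 114 to 139, were close together, but 1999 read 145 and 131 at 0h and 12h. With no filter on dim probe sets, its log2 change was 0.59 ± 0.29 at 4d (limma, adjusted p = 0.286) and 0.40 ± 0.29 at 7d (adjusted p = 0.498). This is not a measure of absence, since which of the Dmd transcripts the probe set reads is not given in the sources used here.

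**Figure D3:**
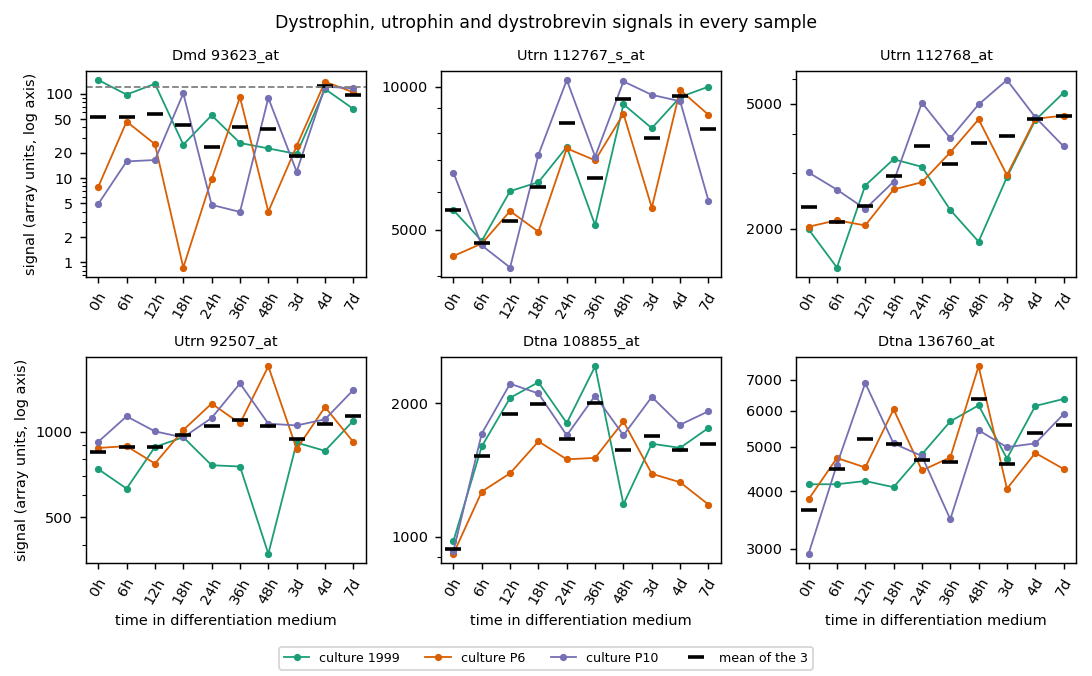
Signal (log axis, array units) of 6 probe sets of Dmd, Utrn and Dtna in each sample against time in differentiation medium, coloured by culture, with a black bar for the mean of the 3. The dashed line in the Dmd panel is the 25th percentile of the chip, 119.8, and most Dmd points lie under it, whereas Utrn 112768_at ends between 3659 and 5427.

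For the member probe sets the cultures differed in level, and no difference between them in the size of the change passed its test. Culture as a term passed for 11 of the 17 probe sets, against 24.0% of all probe sets. The test is joint over the 3 cultures, with an adjusted p of 4.55e-05 for Sgca 103395_at, 5.12e-05 for 160631_s_at, 0.000102 for Sgcb 93898_at and 0.0113 for Dag1 101109_at (limma). The level of P10 was above that of 1999 by 1.09, 1.46, 0.73 and 0.38 on the log2 scale for these probe sets, differences that were not tested pair by pair. Utrn 112767_s_at and 112768_at did not pass between cultures (adjusted p = 0.648 and 0.141). Without P10 the count was 1, and without 1999 it was 4. Arrays of 1999 shared no scan day with the other cultures on MG_U74Av2, so culture and scan day cannot be told apart there, and the 7d arrays of P6 and P10, scanned on 1 day, read 3953 and 5913 for Sgca 103395_at.

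The change from the 3 earliest times (0h to 12h) to the 3 latest (3d to 7d) was also set against each other across cultures, and 0 of 17 probe sets passed, against 1.79% of all probe sets. At an unadjusted p under 0.05 there was 1, Sgca 160631_s_at, with log2 changes of 1.51 in 1999, 3.27 in P6 and 2.95 in P10 (SE 0.49 each; limma, adjusted p = 0.262). For Sgca 103395_at these changes were 1.11, 2.50 and 2.26 (adjusted p = 0.352), and for Utrn 112768_at they were 0.94, 0.85 and 0.75 (adjusted p = 0.939). Myotube markers were also lower in 1999 at 7d, with Acta1, skeletal alpha-actin, at 56165 in 1999, 116527 in P6 and 146357 in P10. Myog, the transcription factor myogenin, read 11798, 19022 and 23084, and Myh3, embryonic myosin heavy chain, 4217, 21536 and 38288 in these cultures. Ckm, which had not risen by 7d, read 429, 910 and 1053. The part of the markers in the Sgca levels was not tested. Early and late phases each hold 3 times, whose own changes enter the error.

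**Figure D4:**
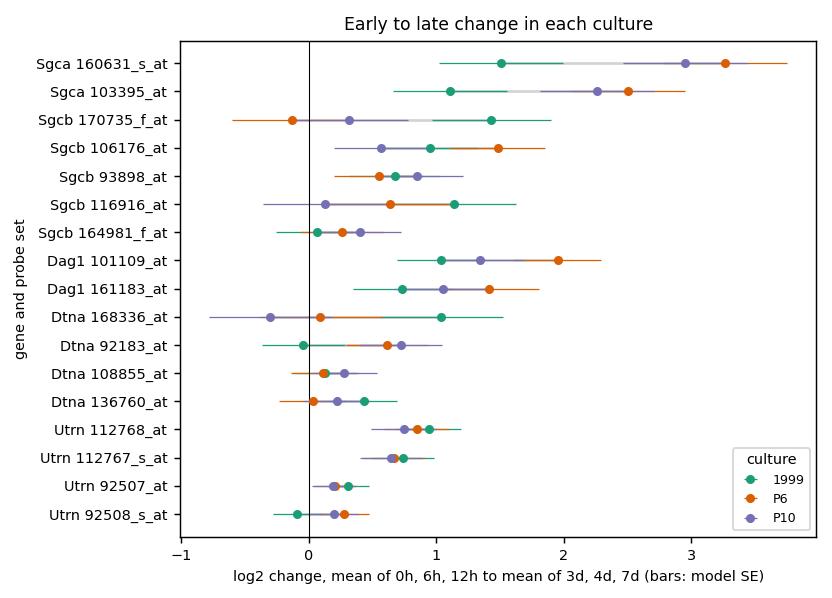
Log2 change from the mean of 0h, 6h and 12h to the mean of 3d, 4d and 7d (horizontal axis) in each culture (coloured points, bars are the standard error of the model) for the 17 tested probe sets. For both Sgca probe sets culture 1999 lies left of P6 and P10, at 1.11 and 1.51, and the 3 cultures nearly coincide for Utrn 112768_at.

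The genes whose log2 signals ran most like those of the members over the 30 samples were read from all 3 chips. For Sgca 103395_at these were Trdn, triadin of the calcium release site, at a Pearson r of 0.96, Chrng, the fetal acetylcholine receptor gamma subunit, at 0.95, and Actn3, the fast-fibre alpha-actinin, at 0.94. Sgca 160631_s_at was closest to Trdn (0.96), Pygm, muscle glycogen phosphorylase (0.95), and Map1lc3a (0.95). Dag1 101109_at was closest to Trdn, Prkar1a and Svil, all at 0.94. Sgcb 93898_at was closest to C1qtnf3 (0.93), Cdh15, the myoblast adhesion molecule M-cadherin (0.90), and Chrnb1, an acetylcholine receptor subunit (0.90). For Dtna 108855_at the highest was Stat2 at 0.77 and for Utrn 112767_s_at Gpc6 at 0.81. The 30 points share cultures, times and arrays, and the genes were picked as the highest of all.

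Among the members, Dag1 101109_at and Sgca 103395_at had a Pearson r of 0.91, Sgca 103395_at and Sgcb 93898_at 0.85, and Dag1 101109_at and Sgcb 93898_at 0.74 over the same 30 samples. Utrn 112768_at had an r of 0.72 with Sgca 103395_at and 0.67 with Dag1 101109_at. These values describe samples of 1 time course and carry no test.

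Of 59 listed partner genes 45 had a tested probe set, and at 7d 15 were higher and 4 lower, against 7.64% and 7.31% of all probe sets, with a median log2 change of 0.06. The 4 lower genes are a share near that of all probe sets. Both other tested members of the sarcoglycan and sarcospan group rose. Sgce, epsilon-sarcoglycan, the wider-spread relative of Sgca, went from 1894 ± 450 (SD, n = 3) to 4263 ± 1441, a log2 change of 1.09 ± 0.22 (limma, adjusted p = 0.00108, and 0.139 without the culture block, 0.189 with scan day as a further block). Sspn, sarcospan, a small tetraspan protein held by the sarcoglycans, went from 1514 ± 300.4 to 4751 ± 1077, a log2 change of 1.57 ± 0.23 (adjusted p = 4.68e-05). Sgcd, delta-sarcoglycan, did not pass the filter.

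Of 10 tested genes on the cytoplasmic side, 3 rose and 1 fell, against 7.64% and 7.31% of all probe sets. Cav3, the muscle caveolin, rose by 4.47 ± 0.79 on the log2 scale (limma, adjusted p = 0.000342), Des, the intermediate filament desmin, by 1.66 ± 0.38 (adjusted p = 0.00364) and Sntb1, beta-1-syntrophin, by 1.53 ± 0.44 (adjusted p = 0.0206). With scan day as a further block the Sntb1 value was -0.083 (adjusted p = 0.956) and the Des value 0.81 (adjusted p = 0.423), and both calls also ended without the culture block, without P6 and without P10. The early to late change of Des differed in size between cultures (limma, adjusted p = 0.0453). At 7d Des read 900 in 1999, 1960 in P6 and 2531 in P10. Dtnb, beta-dystrobrevin, which is best known from non-muscle tissues, fell by 1.58 ± 0.34 (adjusted p = 0.00199), from 653.7 ± 58.8 to 145.8 ± 75.1, while its relative Dtna gave no lower value that passed. The Dtnb call ended with scan day as a further block (-1.12, adjusted p = 0.325) and without P10. The syntrophins Sntb2 and Sntg2 had log2 changes of -0.11 ± 0.31 and -0.11 ± 0.64 (adjusted p = 0.877 and 0.945).

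On the matrix side 4 of 10 tested genes rose and 1 fell, against 7.64% and 7.31% of all probe sets. Nid2, the basement membrane linker nidogen 2, rose by 3.53 ± 0.46 on the log2 scale (limma, adjusted p = 9.94e-06) and Lama2, the laminin chain of adult muscle, by 1.40 ± 0.30 (adjusted p = 0.00228). Lamb1, a laminin beta chain, fell by 1.29 ± 0.33 (adjusted p = 0.00849), and Lamb2, the beta chain of the neuromuscular junction, rose by 1.18 ± 0.20 (adjusted p = 0.000268). The Lamb1 call held under 8 of 13 alternatives and ended without the culture block (adjusted p = 0.152), with scan day as a further block (-0.50, adjusted p = 0.616), with only the 6 arrays compared, without P6 and without P10. At 24h Lama2 had a log2 change of 0.11 (adjusted p = 0.908). By then both tested Sgca probe sets, both Dag1 probe sets, Sgcb 93898_at and Sgcb 106176_at had already risen.

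Of 12 tested genes for dystroglycan glycosylation, the sugar chain that holds laminin, 1 rose and none fell. Of all probe sets 7.64% were called higher and 7.31% lower at 7d, so 1 of 12 is near the share of all. This was Dpm1, a subunit of dolichol phosphate mannose synthase, at 0.86 ± 0.22 on the log2 scale (limma, adjusted p = 0.00809), a call that ended without 1999, without P10 and with only the 6 arrays compared. The median log2 change of the 12 was 0.0049, against -0.05 for all tested probe sets and 2.28 for Dag1 101109_at itself.

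The other laminin receptor of muscle, the alpha 7 integrin, rose as well. Itga7 went from 2685 ± 672 (SD, n = 3) to 9531 ± 3969 at 7d, a log2 change of 1.72 ± 0.17 (limma, adjusted p = 4.02e-07). Itga6, the alpha 6 integrin, fell by 1.62 ± 0.30 (adjusted p = 0.000505). Dysf, dysferlin, which acts in membrane repair, rose by 1.62 ± 0.36 (adjusted p = 0.00293), and Anxa2, annexin A2, fell by 1.49 ± 0.23 (adjusted p = 8.92e-05). All 3 listed synapse genes rose, namely Chrna1, the acetylcholine receptor alpha subunit, by 2.56 ± 0.37 (adjusted p = 3.55e-05), Musk, the agrin-responsive kinase, by 1.55 ± 0.49 (adjusted p = 0.0357) and Rapsn, the receptor-clustering protein rapsyn, by 1.08 ± 0.13 (adjusted p = 4.83e-06). With scan day as a further block the calls of Itga6 and Dysf ended (-1.31 and 1.15, adjusted p = 0.123 and 0.245). Musk kept its call under 6 of 13 alternatives, and Rapsn lost it only without the culture block (adjusted p = 0.0811).

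**Figure D5:**
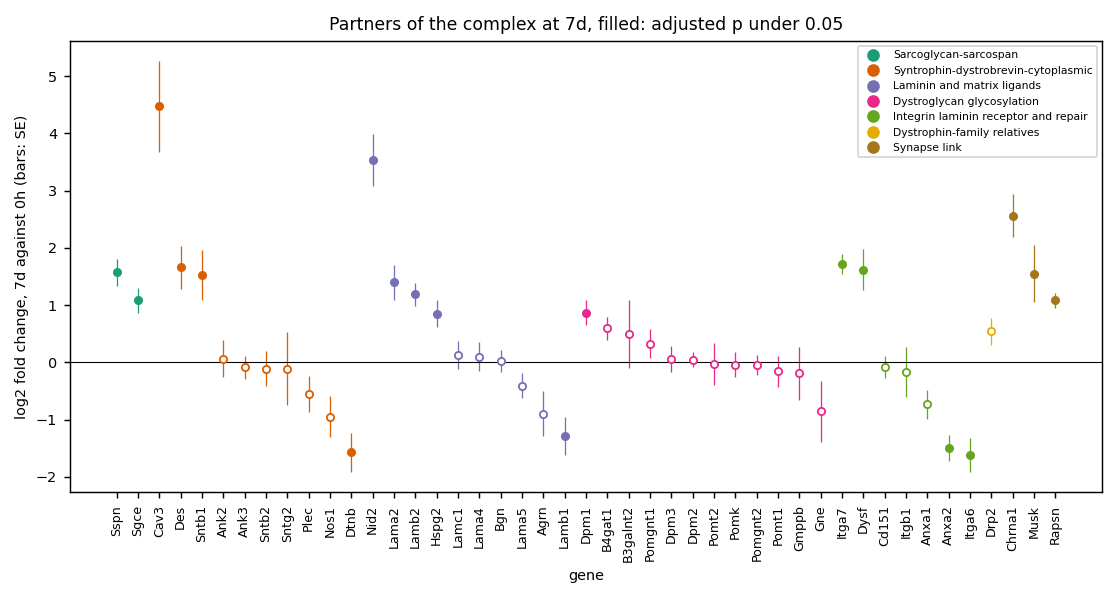
Log2 fold change at 7d against 0h (points, bars are standard errors) of 45 partner genes with a tested probe set, ordered by role (colour) and filled where the adjusted p was under 0.05. Cav3 at 4.47 and Nid2 at 3.53 stand highest and Itga6 at -1.62 lowest. Of the glycosylation genes only Dpm1, at 0.86, is filled, and Gne lies as low as -0.86 without a call.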

How the data were processed

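Deposited intensity values are linear array signals that the authors summarised with MAS5, per the submitters' processing notes; software version, scaling target and detection calls are not given in the sources used here. Mean signal per array lay between 2174 and 2532 on MG_U74Av2, 1946 and 2142 on MG_U74Bv2 and 2442 and 3009 on MG_U74Cv2, and the 3 arrays per time and chip limit the precision. No probe's level was set against another probe's.

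On each chip 66 control probe sets were excluded. Values were taken to log2 after adding the chip's 25th percentile and fitted per chip over 30 arrays with time and culture in limma 3.58.1 (R 4.3.3), with two-sided moderated tests and Benjamini-Hochberg adjustment over the 24307 probe sets together. Chip symbols were updated through Entrez identifiers to RefSeq. A partner gene was represented by 1 tested probe set, without a suffix mark first, then with the highest mean signal. All member probe sets were named. From each partner list up to 3 called genes with the largest change at 7d were named, with the sarcoglycans, syntrophins, Dtnb, Lama2 and Itga7, and for likeness the 3 genes with the highest r. Lamb2 and Anxa2 were named in addition, after their values were seen, and the test of 7d against 24h was likewise added. Members and lists were chosen with earlier results of these data known. The script was tested on simulated data.

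Culture names recur at every time and were used to pair the samples. Once each time's mean was taken off, 2 arrays of 1 culture had a median correlation over probe sets of 0.44, 0.232 and 0.0877 by chip. For 2 cultures the values were -0.199, -0.0846 and -0.0359. With those means taken off, the cultures' values cancel at each time. A positive correlation within a culture then brings negative values between cultures, which are no separate evidence of pairing. Culture and scan day cannot be told apart for 1999 on MG_U74Av2, and the part of scan day in these correlations was not tested. Alternatives were the model without culture, other added values, no filter, quantile normalization, scan day as a block, only the 6 arrays compared, leaving out each culture and, chosen after seeing the data, leaving out single arrays that stood apart.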

Additional observations from a re-analysis of the deposited data

How the results depend on the processing

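Both tested Sgca probe sets, Dag1 101109_at and Sgcb 93898_at were called higher at 24h and 7d under all 13 alternatives run. The paired model, with the replicate block of culture, called 11 member probe sets at 7d, 8 in the joint test and 19 partner genes. Without that replicate block these counts were 7, 5 and 12. With scan day and culture as blocks, 6 of 17 were called at 4d (10 in the reported model), 6 at 7d and 11 partner genes. The test between cultures was not run with scan day. With only the 6 arrays compared, 4 were called at 24h (8 as reported), 3 at 4d and 6 at 7d. Without the 1999 arrays of 0h, an alternative chosen after seeing the data, 7 were called at 7d. Leaving out 1 culture at a time gave 5 to 6 at 24h, 4 to 6 at 4d, 6 to 8 at 7d, 3 to 5 in the joint test, 1 to 9 between cultures and 12 to 19 partner genes. The cause of these losses was not tested, beyond the fewer arrays in the fits that leave some out. The interaction called 0 member probe sets in every alternative that was run for it.

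Signs turned only for values that did not pass in the alternative. With scan day as a block Sntb1 gave -0.083 at 7d, the only turned value called in the reported model, Dtna 92183_at -0.14 at 24h, and Utrn 92508_s_at -0.16 at 4d and -0.46 at 7d. Leaving out 1 culture at a time, the values that turned in at least 1 fit ranged from -0.072 to 0.040 (Utrn 92508_s_at, 24h), from -0.73 to 0.14 (Utrn 92508_s_at, 48h), from -0.31 to 0.53 (Utrn 92507_at, 48h) and from -0.36 to 0.61 (Dtna 92183_at, 24h). For Utrn 92507_at at 6h the range was from -0.087 to 0.14, for Sntb2 at 7d from -0.62 to 0.22 and for Sntg2 at 7d from -0.70 to 0.41. Without the 1999 arrays of 0h, Utrn 92508_s_at gave 0.12 at 24h and Sntg2 0.020 at 7d, and without those of 36h and 48h Utrn 92508_s_at gave 0.051 at 48h. The Dmd signal, under the chip's 25th percentile in 26 of 30 arrays, carries no measurable change here.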
